A study of Bos taurus with 17 samples.

Results

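The genes described here are 7 markers of the theca and stroma of the ovarian follicle, INSL3, CYP17A1, LUM, DCN, PDGFRA, PDGFRB and NR2F2, measured in bovine cumulus samples on 17 one-colour Agilent arrays. The members were the probes whose gene name is one of these symbols, or whose description names the gene where the name is a LOC number, and they came to 6 probes of 4 genes. In addition, 3 probes were taken by other names, namely a CYP17A1 probe listed under the older symbol CYP17, and expressed sequence tags described as PDGFRA and PDGFRB. Thus 9 of the 21475 probes on the array, for 6 of the 7 genes, were described, and 6 of them, for 5 genes, were detected widely enough to be tested. NR2F2 was not analysed here, as no probe carried its name, description or accession.

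Cumulus cells were mechanically separated from cumulus-oocyte complexes, and each array held the RNA of 1 sample. Group NC1 (6 arrays) came from calves 3 to 6 months old, with compact cumulus around prophase I oocytes that are meiotically but not developmentally competent. Group C1 (6 arrays) came in the same manner from adult cows of different ages, with prophase I oocytes that are developmentally competent. Group C2 (5 arrays) came from non-lactating Holstein cows 3 to 5 years old that had received a superovulation treatment with gonadotropins, and the expanded cumulus was collected in vivo by ovum pick-up from ovulatory follicles with metaphase II oocytes. C2 therefore differed from C1 in stage, hormone treatment and collection all together, and these cannot be told apart. Follicle size differed with them, as the study's methods took C2 complexes from larger follicles than those of NC1 and C1. Breed and lactation state were stated for C2 and not for C1, and the ages of the cows were described differently, so these may differ as well. C1 against NC1 likewise set adult cows against calves, so age and developmental competence cannot be told apart there. The labels name the tissue as ovarian follicles, whereas the protocol says that only cumulus was kept. NC1 and C1 complexes were aspirated from slaughterhouse ovaries, and according to the study's methods each sample came from a different animal, which the labels do not tie to arrays.

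Theca cells surround the follicle outside the basement membrane. The theca interna makes androgens through CYP17A1, the enzyme with 17-alpha-hydroxylase and 17,20-lyase activity, and secretes INSL3, a relaxin-like peptide, whereas the theca externa and the surrounding stroma are rich in fibroblast-like cells that lay down collagen and the small leucine-rich proteoglycans decorin (DCN) and lumican (LUM). Both receptors of platelet-derived growth factor, PDGFRA and PDGFRB, and the orphan nuclear receptor NR2F2 (COUP-TFII) are commonly used to mark mesenchymal cells. Cumulus cells belong to the granulosa lineage, lie inside the basement membrane and are known for aromatase, FSH receptor and anti-Mullerian hormone, so that theca and stroma transcripts are often read as a measure of other follicular cells carried along with the complexes. In bulk samples such as these, fewer cells of a type and less RNA per cell cannot be told apart.

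The array probes are 60 bases long, and the stretches given here show what each signal was read from. They were taken from the deposited table. The decorin probe A_73_104758 is printed whole because its signal and that of the other decorin probe went different ways. Of the others 30 bases are shown, from the start of the probe or, for INSL3, from its end, where the capitals mark the AATAAA polyadenylation signal.
INSL3 A_73_107044: tcctcaatagtaAATAAAtaagatgcctgc
CYP17A1 A_73_107792: cgcccactctgccttctttcccagcctgca
LUM A_73_100839: atggatgtttacagtcctgcagcaaattat
DCN A_73_104758: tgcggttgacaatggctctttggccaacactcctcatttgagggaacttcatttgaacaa
DCN A_73_111861: cccctcctcctttccacacctgcaaactct
PDGFRA A_73_104923: taactcggtaggaagggtctaccaatacaa
A search of the whole probes, as written in the table and not on the opposite strand, found AATAAA in the INSL3 probe alone among these 6, and in 14.3% of the 15239 probes with a sequence in the table. The number of reading frames without a stop codon was 0 of 3 for the INSL3 probe and for the decorin probe A_73_111861, 1 for CYP17A1, DCN A_73_104758 and PDGFRA, and 3 for LUM. At least 1 such frame was found in 80.6% of the probes in the table. Both decorin probes thus differ in this feature, which is a description of the letters and not of the position in the transcript.

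Signals are given on a log2 scale, as the processed signal of a probe divided by the median probe of the same array. A level can therefore be compared between arrays for the same probe, but not between probes. Arrays had 66.0 to 82.7% of probes counted as well above background, no saturated spot, and a median signal between 64.2 and 208 intensity units. There were 6 slides and 2 scan days for the 17 arrays. In C2, replicates 1, 2 and 5 were scanned on the first day and replicates 3 and 4 on the second, and the C2 arrays fell into close pairs. Replicates 1 and 5 deviated from the group mean together (Pearson r of 0.80 over all valid probes, which are not independent replicates), and so did replicates 3 and 4 (r of 0.69), with distances of 0.44 and 0.51 log2 units beside 1.05 to 1.27 for the other C2 pairs. Each pair lay within 1 scan day, and scan day values are given beside each member for this reason. With each pair averaged, both LUM and DCN A_73_104758 stayed past the threshold in C2 against C1, at 3.79 and 3.93 log2 units (limma adjusted p = 3.68e-05 and 0.000227). Of the cumulus and granulosa markers, 11 of 12 were well above background on every array, among them FSHR, AMH, FOXL2, INHA and CYP19A1. In both C2 contrasts 5 of the 11 tested were lower and 0 were higher by limma, with medians of -1.49 against C1 and -1.36 against NC1. Against C1, HSD17B1, an estrogen-forming enzyme, fell by 6.46 log2 units, FSHR fell by 3.55, FOXL2, a granulosa transcription factor, fell by 2.99, AMH fell by 2.14 and CYP19A1, aromatase, fell by 3.45, with SEs of 0.20 to 0.95 and limma adjusted p of 1.34e-09 to 0.00704. The CYP19A1 difference was -5.84 on the first scan day and -0.03 on the second. The part of this fall in the member results was not tested.

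At least 1 probe for 5 of the theca and stroma markers gave signals well above background in every sample. The specificity of the probes was not tested. Between 5 and 6 of the 6 measured genes were well above background on each of the 17 arrays, and INSL3, CYP17A1, LUM, DCN and PDGFRA reached this on every array by at least 1 probe. By comparison 61% of all probes on the array were well above background on every array, a share of single probes and not of genes. Among the member probes, LOC616447, described as similar to decorin, reached this on 2 arrays, the probe named PDGFRA on 12 and PDGFRB on 11. No detection beyond that of the whole array can therefore be read from the count of genes. PDGFRB made the difference between 5 and 6 genes, being well above background on 3 of 6 NC1, 4 of 6 C1 and 4 of 5 C2 arrays.

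**Figure D1:**
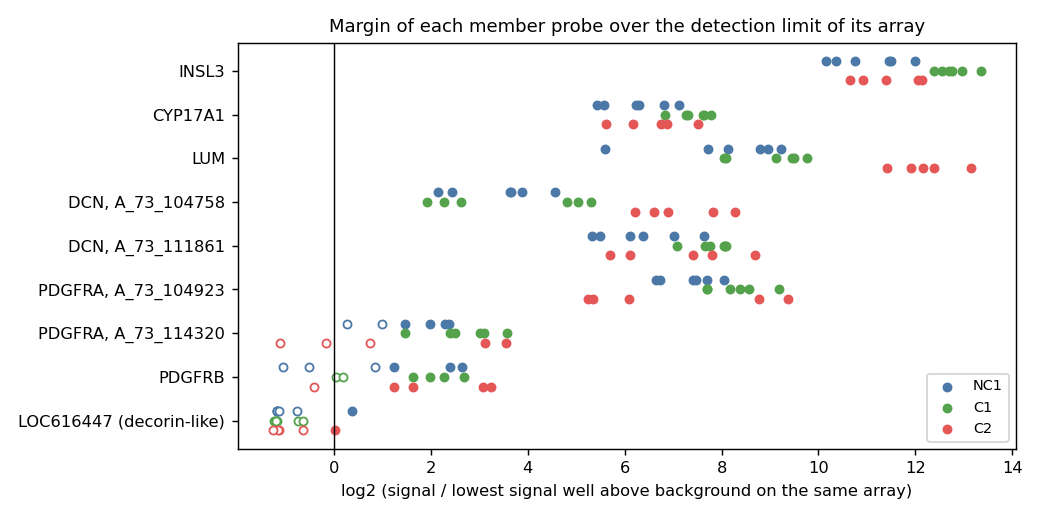
Margin of the 9 member probes over the lowest signal called well above background on the same array (horizontal axis, log2 units), with 1 point per array coloured by stage and open where the probe was not well above background. INSL3, CYP17A1, LUM, both named decorin probes and the PDGFRA tag lie to the right of the limit on all 17 arrays, with the smallest margin of 1.92 for DCN A_73_104758 in C1, while LOC616447 lies at or below it on 15 arrays.

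The margin over the detection limit, defined on each array as the lowest probe signal called well above background, was large for most of these probes. It was at least 10.15 log2 units for INSL3, 5.43 for CYP17A1, 5.60 for LUM, 5.33 for DCN A_73_111861 and 5.24 for the PDGFRA tag. DCN A_73_104758 came closest to the limit, with a smallest margin of 1.92 log2 units on a C1 array, a signal of 3.79 times the limit. This limit is not the flag itself, as the probe named PDGFRA stood 0.99 above it on NC1 replicate 6 without being flagged. INSL3, CYP17A1 and LUM were thus far from the limit on every array. Whether they came from theca or stroma cells or from the cumulus itself was not tested.

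The theca interna members, INSL3 and CYP17A1, overlapped among the stages. INSL3, the peptide hormone by which theca interna cells are usually recognised, ranged in NC1 from 6.40 to 7.86 with a median of 6.72, and in C1 from 7.17 to 7.92 with a median of 7.51. The C2 arrays read 6.19, 7.40, 6.39, 6.87 and 6.89 for replicates 1 to 5. The C1 arrays were the highest as a group, but NC1 replicate 3 stood among them and C2 replicate 2 overlapped their lower end. The means were 6.85 ± 0.52 (SD, n = 6) in NC1, 7.52 ± 0.28 (n = 6) in C1 and 6.75 ± 0.47 (n = 5) in C2.

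In comparison to C1, INSL3 differed by -0.78 on the log2 scale at C2 stage (SE 0.26, 95% interval -1.32 to -0.23), which did not pass the threshold of 0.01 used throughout (limma, adjusted p = 0.0221). The adjusted p fell to 0.00574 with scaling to the 75th percentile, 0.00495 with quantile normalization and 0.00302 with normexp background correction, and the size of the difference was then between -0.96 and -0.87. Without C2 replicate 2 the difference was -0.94 (adjusted p = 0.00668), and without NC1 replicate 3, which enters only through the shared estimate of the spread, the adjusted p was 0.00674. All 5 slides that held both stages had the C2 array below the C1 array, with differences from -1.72 to -0.13 log2 units. Within scan days, the C2 minus C1 difference was -0.75 on the first day and -0.84 on the second. The call for INSL3 therefore depended on the setting while the direction did not.

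INSL3 in C1 exceeded NC1 by 0.68 log2 units (SE 0.25, 95% interval 0.16 to 1.19, limma adjusted p = 0.316), and C2 differed from NC1 by -0.10 (SE 0.26, 95% interval -0.64 to 0.44, adjusted p = 0.794). The latter changed sign with normexp background correction. A 2-sided exact permutation test on INSL3 alone gave p = 0.013 for C2 against C1, 0.0238 for C1 against NC1 and 0.762 for C2 against NC1. These are 3 of 27 such tests run on the 9 member probes and are not adjusted. The smallest p that the design allows is 0.00433 with 5 against 6 arrays and 0.00216 with 6 against 6.

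CYP17A1, required for the conversion of progestagens to androgens and classically absent from granulosa cells, lay between 1.34 and 2.45 over the 17 arrays. The signal was 1.94 to 2.39 with a median of 2.00 in NC1, and 1.76 to 2.45 with a median of 2.15 in C1. In C2 it read 2.15, 2.10, 1.34, 1.65 and 2.25 for replicates 1 to 5. The stages overlapped, with C2 replicates 3 and 4, both of the second scan day, below every other array of the series.

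The means of CYP17A1 were 2.05 ± 0.17 (SD, n = 6) in NC1, 2.15 ± 0.26 (n = 6) in C1 and 1.90 ± 0.39 (n = 5) in C2. C2 differed from C1 by -0.25 log2 units (95% interval -0.64 to 0.15, limma adjusted p = 0.312) and from NC1 by -0.16 (95% interval -0.55 to 0.24, adjusted p = 0.544), and the sign of the latter was lost with normexp. On the first scan day the C2 minus C1 difference was -0.12, and on the second it was -0.51, with no overlap between the C2 and C1 arrays of that day. C1 and NC1 differed by 0.09 (95% interval -0.28 to 0.47, adjusted p = 0.92).

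**Figure D2:**
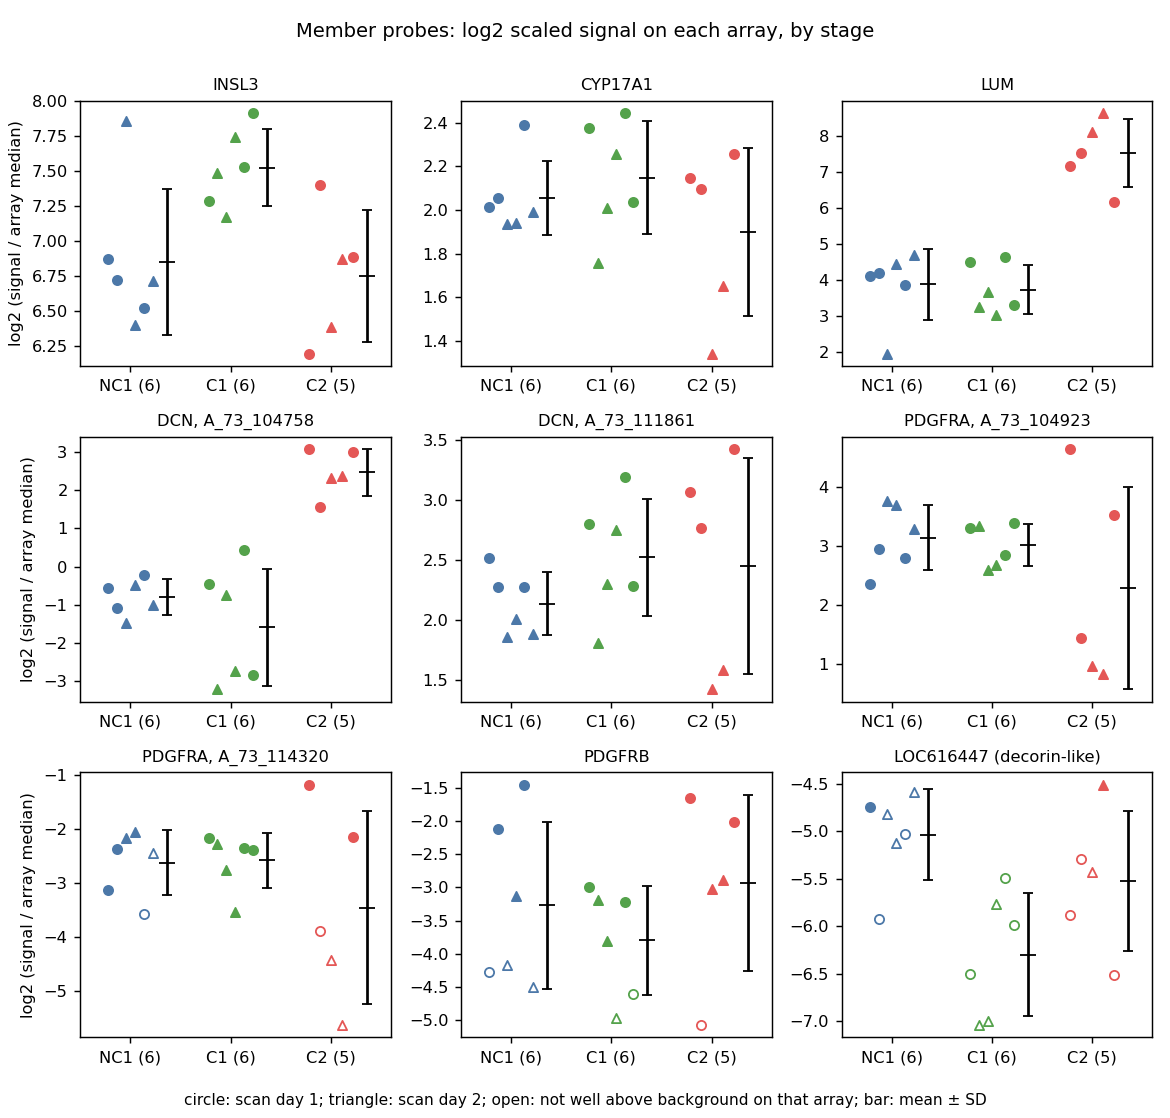
Log2 scaled signal of the 9 member probes (vertical axis, log2 of signal over the array median) on the 6 NC1, 6 C1 and 5 C2 arrays, with circles for the first and triangles for the second scan day, open symbols where not well above background, and bars for mean and SD. LUM and DCN A_73_104758 separate all C2 arrays from the others, whereas INSL3 and CYP17A1 overlap among stages and the PDGFRA tag spreads from 0.83 to 4.64 in C2.

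The proteoglycan members behaved otherwise. Lumican, a keratan sulfate proteoglycan that binds and spaces collagen fibrils, read 1.96 to 4.70 with a median of 4.16 in NC1 and 3.04 to 4.63 with a median of 3.49 in C1. At C2 stage the 5 arrays read 7.18, 7.52, 8.11, 8.64 and 6.16. Every C2 array was above every NC1 and C1 array, while NC1 and C1 overlapped and NC1 replicate 3 stood alone at the bottom.

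LUM was thus over-expressed at C2 stage by 3.79 log2 units in comparison to C1 (SE 0.48, 95% interval 2.78 to 4.79), a 13.8-fold difference, and by 3.64 log2 units or 12.4-fold in comparison to NC1 (95% interval 2.63 to 4.64). The limma adjusted p was 5.43e-06 and 8.83e-06. C2 exceeded C1 on all 5 slides that held both, by 1.66 to 5.07 log2 units. The difference was 2.81 on the first scan day and 5.05 on the second, and the difference between days did not pass (interaction 2.24, adjusted p = 0.136). Between C1 and NC1 it was -0.15 (95% interval -1.11 to 0.81, adjusted p = 0.958), with the sign reversed under normexp.

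Decorin, a chondroitin or dermatan sulfate proteoglycan that binds collagen and TGF-beta, was measured by a pair of probes carrying its symbol, and they disagreed. With A_73_104758 the signal in NC1 ran from -1.50 to -0.21 with a median of -0.79, and in C1 from -3.23 to 0.44 with a median of -1.74. The C2 arrays read 3.09, 1.57, 2.33, 2.38 and 3.02. All C2 arrays were above all others, and C1 was split, with replicates 2, 4 and 6 at -2.74 or lower and replicates 1, 3 and 5 at -0.74 or higher.

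By A_73_104758, DCN was over-expressed at C2 stage by 4.08 log2 units (SE 0.55, 95% interval 2.92 to 5.23) or 16.9-fold in comparison to C1 and by 3.29 log2 units or 9.77-fold in comparison to NC1 (95% interval 2.13 to 4.45), with limma adjusted p of 1.17e-05 and 0.000117. All 5 slides showed C2 higher, by 1.13 to 5.95 log2 units over C1 and by 2.67 to 3.83 over NC1. The C2 minus C1 difference was 3.52 on the first scan day and 4.59 on the second. Using the arrays of the first day alone, the difference from NC1 was 3.18 but the adjusted p was 0.0132. C1 differed from NC1 by -0.79 (95% interval -1.89 to 0.31, adjusted p = 0.681).

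With A_73_111861, which had the higher mean signal and therefore stood for the gene in counts, the signal was 1.86 to 2.52 with a median of 2.14 in NC1 and 1.81 to 3.19 with a median of 2.53 in C1. The C2 arrays read 3.07, 2.77, 1.42, 1.58 and 3.43. The C2 arrays of the first scan day lay above all NC1 arrays and those of the second below all of them, so that the stage as a whole overlapped both others.

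The stage means of this probe were 2.14 ± 0.26 (SD, n = 6), 2.52 ± 0.49 (n = 6) and 2.46 ± 0.90 (n = 5) for NC1, C1 and C2. C2 differed from C1 by -0.07 log2 units (95% interval -0.77 to 0.63, limma adjusted p = 0.881) and from NC1 by 0.32 (95% interval -0.38 to 1.01, adjusted p = 0.478). On the first scan day C2 minus NC1 was 0.73 and on the second it was -0.42, and the interaction of -1.15 had an adjusted p of 0.14. The upper limit of 0.63 over C1 for this probe lies below the lower limit of 2.92 for A_73_104758.

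The difference between both decorin probes on the same array moved by 4.15 log2 units from C1 to C2 and by 2.97 from NC1 to C2, with an SD over arrays of 0.40 in NC1, 1.23 in C1 and 0.88 in C2. These shifts are given without a test, as the pair was singled out for the disagreement. The members named DCN thus changed unequally, and the over-expression of decorin rested on 1 of them. The mean of both probes was higher at C2 stage by 2.00 log2 units against C1 and 1.80 against NC1, with the lowest C2 array at 1.88 beside 1.82 for the highest C1 array (2-sided exact permutation p = 0.00433, the smallest the design allows, in a test added after the values were seen), and it was not fitted over all probes. Which transcript either probe reads was not tested.

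**Figure D3:**
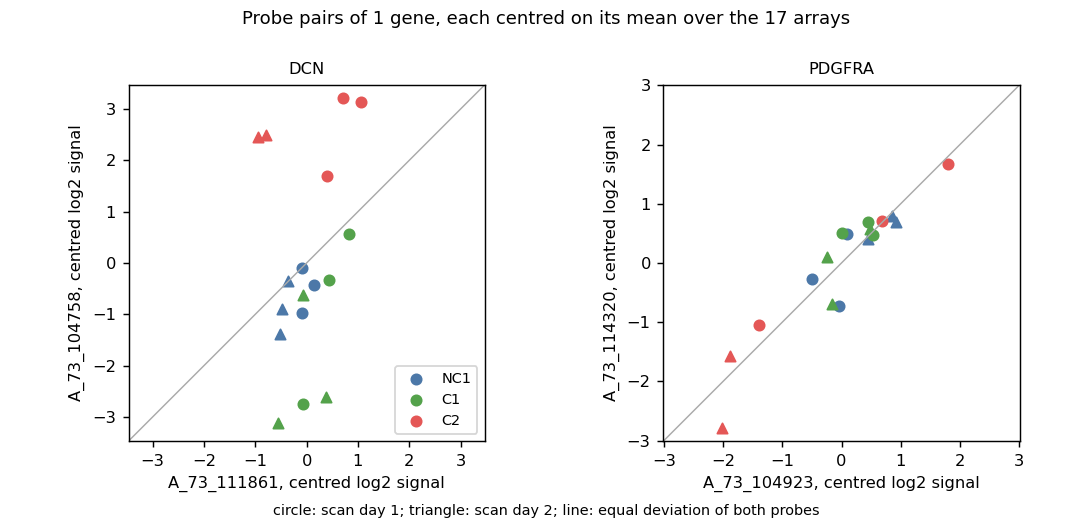
Deviation of each array from the mean over 17 arrays for both decorin probes (left) and both PDGFRA probes (right), in log2 units, coloured by stage, with circles for the first and triangles for the second scan day and a line for equal deviation. The PDGFRA probes follow the line, whereas the C2 arrays leave it for decorin, with A_73_104758 high at every value of A_73_111861.

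The probe of LOC616447, described as similar to decorin, read between -7.04 and -4.51 and was well above background on NC1 replicate 1 and C2 replicate 4 alone. It was left out of the fit over valid probes. On these signals, nearly all at or below the detection limit, the exact permutation test gave p = 0.0952 for C2 against C1, 0.225 for C2 against NC1 and 0.00649 for C1 against NC1, and limma without the filter gave an adjusted p of 0.0442 for the last. In C1 it was not well above background on any array.

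Of the growth factor receptors, PDGFRA was detected on every array by its tag, and PDGFRB was not. PDGFRA, the receptor chain that binds PDGF-A, -B and -C, read by the tag A_73_104923 between 2.35 and 3.76 with a median of 3.12 in NC1 and between 2.59 and 3.38 with a median of 3.08 in C1. The C2 arrays read 4.64, 1.45, 0.97, 0.83 and 3.52. Replicates 1 and 5 stood at the level of the immature stages or above, while replicates 2, 3 and 4 were below every NC1 and C1 array.

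PDGFRA had an SD of 1.71 in C2, larger than for 96.1% of the 13865 tested probes, against 0.55 in NC1 and 0.36 in C1. C2 differed from C1 by -0.74 log2 units (95% interval -1.87 to 0.39, limma adjusted p = 0.291) and from NC1 by -0.86 (95% interval -1.99 to 0.27, adjusted p = 0.22). The C2 minus C1 difference was 0.03 on the first scan day and -1.97 on the second, where it passed the test (adjusted p = 0.000158 on the arrays of that day). The first-day value averaged slide differences of 1.26, -1.40 and 0.22, and the second-day value set 2 C2 arrays, a close pair, against 3 C1 arrays. The C2 minus NC1 difference was 0.51 on the first day and -2.68 on the second (adjusted p = 1.23e-05 on that day). The interaction of stage and day did not pass, at -3.19 for C2 against NC1 (adjusted p = 0.0412) and -1.997 for C2 against C1 (adjusted p = 0.154), and scan day and animal cannot be told apart within C2. C1 and NC1 differed by -0.12 (95% interval -1.20 to 0.96, adjusted p = 0.973).

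The probe named PDGFRA, A_73_114320, was dimmer and followed the same arrays. It ranged from -3.58 to -2.06 in NC1 and from -3.55 to -2.17 in C1, with 4 of the 6 NC1 arrays and all 6 C1 arrays flagged as well above background. The C2 arrays read -1.18, -3.90, -4.43, -5.64 and -2.15, with replicates 1 and 5 well above background and the other 3 not. The difference between both PDGFRA probes on the same array had an SD of 0.37 in NC1, 0.36 in C1 and 0.45 in C2, while the probes themselves spanned 4.46 and 3.81 log2 units over the 17 arrays. In contrast to decorin, both probes of PDGFRA thus agreed in which C2 arrays were high. A 2-sided exact permutation test on A_73_114320 gave p = 0.286 for C2 against C1 and 0.312 for C2 against NC1.

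PDGFRB, the receptor chain for PDGF-B that is typical of pericytes and smooth muscle precursors, reached the detection flag on 11 of the 17 arrays. It read -4.50 to -1.45 with a median of -3.65 in NC1 and -4.97 to -2.99 with a median of -3.52 in C1. The C2 arrays read -1.65, -5.08, -3.03, -2.88 and -2.02. The stages overlapped, and the array at -5.08 was not well above background. An exact permutation test gave p = 0.208 for C2 against C1 and 0.671 for C2 against NC1.

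**Figure D4:**
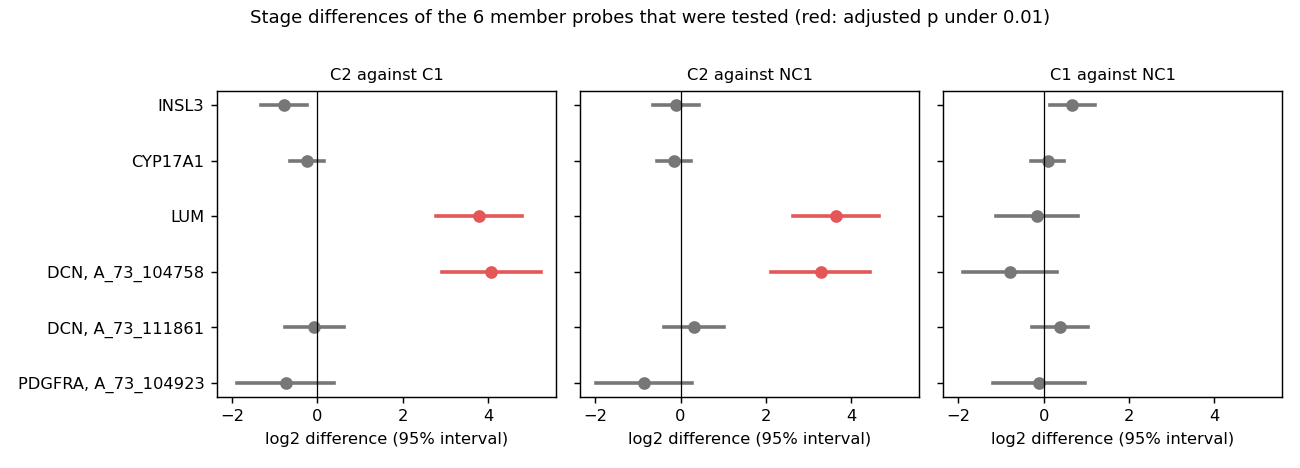
Difference between stages (horizontal axis, log2 units) with the limma 95% interval for the 6 tested member probes in 3 contrasts, red where the adjusted p is under 0.01. LUM and DCN A_73_104758 stand at 3.29 or above against both immature stages, and no member passed between C1 and NC1.

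Counted by the brightest tested probe of each gene, 1 of the 5 tested members, LUM, passed the threshold in C2 against C1, where 28.1% of all tested probes passed in either direction and 15.3% were higher. The same 1 of 5 passed in C2 against NC1, where 28.1% passed and 15.5% were higher. No member passed in C1 against NC1, where 0.0577% of probes did, although by limma 1 of the 5, INSL3, had an unadjusted p under 0.05. The methods' one-factor test called none of the 5 there either. With either decorin probe allowed, a choice made after the values were seen, the count was 2 of 5 in both C2 contrasts. The median difference of the 5 genes was -0.25 log2 units against C1 and -0.10 against NC1, beside 0.02 and 0.11 over all tested probes. Groups that did not overlap were found for LUM and DCN A_73_104758 in both C2 contrasts, and 10.7% of all tested probes were higher in this manner against C1 and 10.6% against NC1. The count of members called was thus near the share of all probes, and nothing particular to the list can be read from it. Both C2 contrasts share the C2 arrays.

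Other genes of the same cells and pathways were read from lists. Of 13 further theca interna genes, 12 were well above background on every array, and many of them are also known in granulosa cells. The exception was LHCGR, the LH receptor, well above background on 0 of 6 NC1, 1 of 6 C1 and 2 of 5 C2 arrays. In C2 against C1, 3 rose and 3 fell, with a median difference of 0.47 log2 units. FDX1, the electron carrier of steroidogenic P450 enzymes, rose by 2.40 log2 units (SE 0.41, limma adjusted p = 0.000133), and ALDH1A1, a retinal dehydrogenase, by 3.25 (SE 0.86, adjusted p = 0.00556). The ALDH1A1 difference was 1.05 on the first scan day and 6.28 on the second. Against NC1, ALDH1A1 differed by 1.29 (adjusted p = 0.251) and did not pass. NR5A1, the steroidogenic factor SF-1, fell by 1.67 (SE 0.28, adjusted p = 9.64e-05). The summed scaled signal of the list was 475 to 834 in NC1, 552 to 807 in C1 and 456 to 2738 in C2.

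Markers of the theca externa and smooth muscle did not move one way. Of 10 genes 8 were tested, and 1 rose while 2 fell at C2 stage against either immature stage. MYH11, smooth muscle myosin heavy chain, fell by 3.11 log2 units against C1 (SE 0.34, limma adjusted p = 9.63e-07) and ACTG2, the enteric smooth muscle actin, fell by 2.67 (SE 0.49, adjusted p = 0.000293). CALD1, the actin-binding caldesmon, rose by 3.76 (SE 0.46, adjusted p = 3.64e-06). ACTA2, the usual smooth muscle actin marker, differed by -0.75 (SE 0.47, adjusted p = 0.21). The list sum was 126 to 258 in NC1, 107 to 152 in C1 and 35.4 to 259 in C2.

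Fibroblast and stroma matrix genes were also mixed. In C2 against C1, 3 of 13 tested genes rose and 3 fell, with a median of 0.21 log2 units. FBLN1, fibulin 1 of elastic fibres, rose by 4.42 (SE 0.28, limma adjusted p = 1.25e-09), POSTN, the matrix protein periostin, by 3.54 (SE 0.46, adjusted p = 6.82e-06) and COL1A1, a chain of collagen I, by 1.15 (SE 0.25, adjusted p = 0.0014). Against NC1, COL1A1 differed by 0.41 (adjusted p = 0.209) and did not pass. SFRP4, a secreted Wnt antagonist, fell by 5.72 (SE 0.64, adjusted p = 1.36e-06). TCF21, a transcription factor of mesenchymal cells, fell by 2.03 (SE 0.44, adjusted p = 0.0013) and VIM, the intermediate filament vimentin, fell by 1.06 (SE 0.15, adjusted p = 1.55e-05). The summed signal was 1114 to 1361 in NC1, 1063 to 1374 in C1 and 730 to 994 in C2, and most of it was VIM, at 896 to 1165, 920 to 1220 and 416 to 578. Without VIM the sum was 168 to 261 in NC1, 102 to 176 in C1 and 243 to 415 in C2.

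Among the other small leucine-rich proteoglycans, relatives of decorin and lumican, 5 of 10 were tested. PRELP and FMOD, fibromodulin, both collagen-binding like lumican, were lower in C2 than in C1, opposite to LUM. PRELP fell by 4.90 log2 units (SE 0.30, limma adjusted p = 1.15e-09) and FMOD fell by 2.31 (SE 0.27, adjusted p = 1.97e-06). OMD, osteomodulin, rose by 1.22 (SE 0.23, adjusted p = 0.000307), and BGN, biglycan, the closest relative of decorin, differed by -0.31 (SE 0.44, adjusted p = 0.6). OGN and PODN were not well above background on any array. The family thus split, with LUM, OMD and 1 decorin probe higher and PRELP and FMOD lower.

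Of the genes known to bind decorin or lumican or to act with them in the matrix, 12 of 13 were tested, and 7 rose and 2 fell against C1, where 28.1% of all tested probes were called and 15.3% were higher. The median was 1.25 log2 units beside 0.02 over all tested probes. Against NC1, 5 rose and 1 fell, with a median of 1.27, where 15.5% of all tested probes were higher. The list was chosen with earlier results of these data known, so its count and median beside all probes are a description and not a test. It holds TNFAIP6 and HAS2, which are known genes of cumulus expansion. TNFAIP6, which links hyaluronan to inter-alpha-inhibitor heavy chains in the expanding cumulus, rose by 6.63 (SE 0.73, limma adjusted p = 1.11e-06) and HAS2, a hyaluronan synthase, by 2.46 (SE 0.53, adjusted p = 0.00123). Against NC1, HAS2 differed by 1.66 (adjusted p = 0.0186) and did not pass. TGFB2, a ligand that decorin can bind, rose by 3.99 (SE 0.65, adjusted p = 8.37e-05), TGFBR2, its receptor, by 3.69 (SE 0.33, adjusted p = 1.02e-07) and MET, a receptor that decorin binds, by 1.55 (SE 0.23, adjusted p = 2.46e-05). EGFR, another receptor bound by decorin, fell by 1.22 (SE 0.30, adjusted p = 0.00323). HSPG2 fell by 1.40 by its brightest tested probe (SE 0.21, adjusted p = 3.54e-05), while its other tested probe, A_73_100060, differed in direction or call in both C2 contrasts.

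For the growth factors of the PDGF receptors, 6 of 9 list genes were tested. PDGFC, a ligand of PDGFRA, fell by 2.19 log2 units in C2 against C1 (SE 0.38, limma adjusted p = 0.000157) and fell by 2.38 against NC1 (adjusted p = 7.21e-05). Against C1, the ligands PDGFA and PDGFB differed by -0.54 (SE 0.67, adjusted p = 0.546) and 0.19 (SE 0.30, adjusted p = 0.644). In the COUP-TF family, the relative of NR2F2 named NR2F1 rose by 2.66 against C1 and 2.09 against NC1 (SE 0.42, adjusted p = 6.27e-05 and 0.000658), and NR2F6 by 0.96 and 0.99 (SE 0.19, adjusted p = 0.000497 and 0.000377). Over all lists 45 of 97 tested genes were called in C2 against C1 and 41 in C2 against NC1, beside 28.1% of all probes in either contrast. As the lists were chosen with earlier results of these data known, these counts are a description and not a test.

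**Figure D5:**
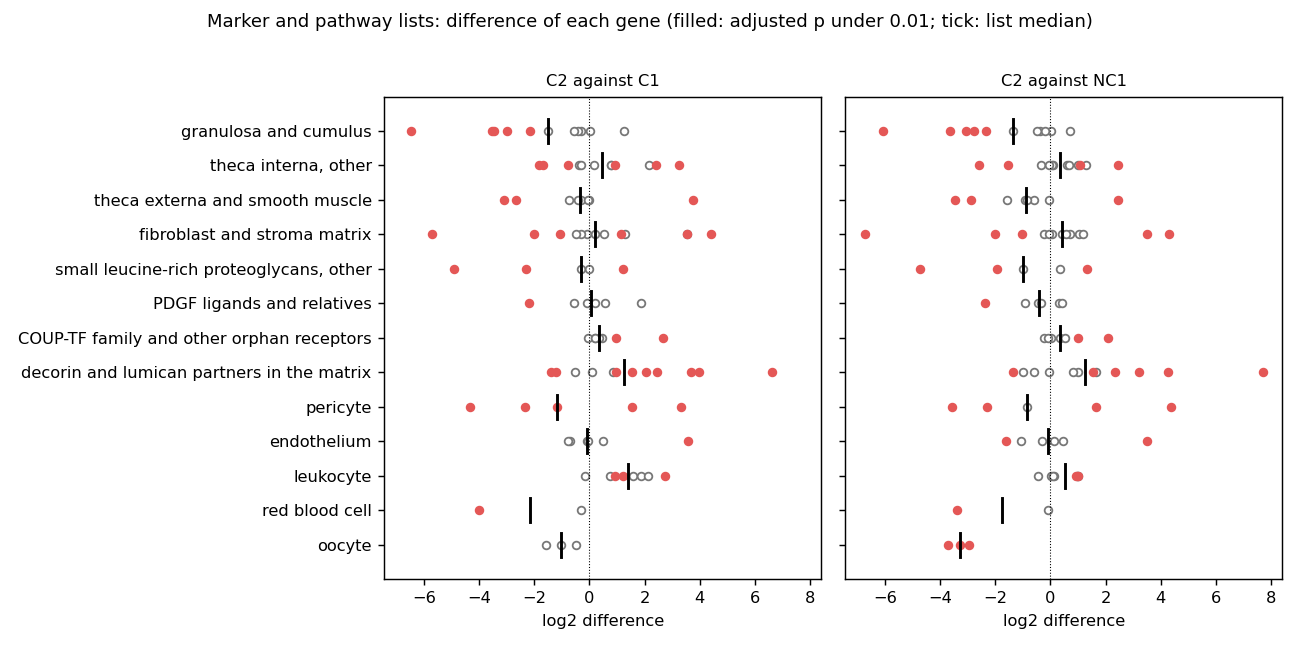
Difference of each tested gene of 13 lists (horizontal axis, log2 units) at C2 stage against C1 (left) and NC1 (right), filled where the adjusted p is under 0.01, with a tick at the list median. Theca, smooth muscle and stroma lists hold genes on both sides of 0, and the list of decorin and lumican partners has its median at 1.25 and 1.27. The lists were chosen with earlier results of these data known.

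Lists of other cells that could accompany the complexes were measured beside these. Leukocyte markers summed to 12.9 to 26.2 in NC1, 10.6 to 21.5 in C1 and 15.7 to 59.8 in C2, with 3 of 8 tested genes higher at C2 stage against C1. Endothelial genes summed to 1.85 to 3.44, 1.69 to 2.23 and 3.35 to 11.8 in the same order, with CDH5 and EMCN not well above background on any array. Of 6 endothelial genes tested against C1, 1 was higher and 0 lower, with a median of -0.08. The one was KDR, a VEGF receptor, which rose by 3.58 (SE 0.50, limma adjusted p = 1.69e-05). TEK differed by -0.78 (adjusted p = 0.0101) and PECAM1 by -0.70 (adjusted p = 0.252). Against NC1, 1 was higher and 1 lower, namely KDR at 3.49 (adjusted p = 2.23e-05) and TEK at -1.61 (adjusted p = 1.85e-05). Without KDR the sum was 1.67 to 3.15 in NC1, 1.41 to 1.97 in C1 and 0.945 to 6.67 in C2, with the median lowest in C2, at 1.38. Pericyte genes summed to 39.9 to 71.5, 47.5 to 97.8 and 22.5 to 34.2, and RGS5, a defining pericyte gene, was well above background on 2 NC1 arrays only. The pericyte list was split, as 2 of 5 tested genes rose and 3 fell against C1. ANGPT1 rose by 3.32 (limma adjusted p = 7.81e-08), and KCNJ8 fell by 4.33 (adjusted p = 1.21e-08). MCAM fell by 2.35 by its brightest tested probe, while its other tested probe differed in direction or call. Most of the pericyte sum in NC1 and C1 came from the MCAM and KCNJ8 probes. Their means were 5.15 and 3.91 in NC1, 5.20 and 4.68 in C1, and 2.85 and 0.35 in C2. No sum was taken without them, so the lower sum in C2 is not a fall of the whole list. Red blood cell genes summed to 28.1 to 130, 73.0 to 258 and 2.57 to 51.6, and oocyte genes to 50.6 to 120, 4.95 to 46.4 and 3.23 to 7.72. Of the 2 red blood cell genes tested against C1, HBA fell by 4.01 (limma adjusted p = 7.49e-05) and AHSP differed by -0.32 (adjusted p = 0.093). Most of the red blood cell sum was HBA, with means of 6.06 in NC1, 6.68 in C1 and 2.67 in C2. HBB, which was not tested, averaged -3.41, -3.33 and -2.76 in the same order. The lower sum in C2 was thus that of the HBA probe and not of the list. The highest leukocyte and endothelial sums were found in C2, and both lists overlapped NC1. Without KDR, only the upper end of the endothelial sum was higher in C2. In that list VWF had an SD of 2.98 in C2. Its C2 minus C1 difference was 2.05 on the first scan day and -1.72 on the second. The part of the leukocyte and endothelial signals in the LUM and DCN results was not tested.

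The genes with the most similar profile over the 17 arrays, by the root mean square difference of centred log2 signals among 8948 named genes, were LMCD1, SRPX2 and FMNL3 for LUM, at 0.59, 0.60 and 0.65. For CYP17A1 they were XAB2, PRAM1 and ZFYVE28 at 0.11, 0.12 and 0.13, and for INSL3 ZBTB4, GAB1 and CUL7 at 0.31, 0.32 and 0.32. DCN A_73_111861 was nearest to REXO1, OPN1LW and CD79A at 0.16, 0.16 and 0.18, and the PDGFRA tag to NEBL, KANK2 and LIMS2 at 0.39, 0.39 and 0.41. For A_73_104758, added after its values were seen, they were MMP11, CALD1 and ATOH8 at 0.73, 0.74 and 0.74.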

How the data were processed

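The deposited Agilent scanner files hold, per the file headers, processed signal intensity in 1 colour (Cy3), background-corrected by the authors with Agilent Feature Extraction 10.5.1.1, which also gives the flag for spots well above background. The authors' table of log2 values, scaled to the array median, was deposited for 15256 probes and served as an alternative and as the source of probe sequences. Here log2 was taken of each spot, and the replicate spots of a probe that were not flagged as outliers were averaged. Where no such spot was left, all spots were used. The median of the array was then subtracted. A probe counted as well above background when at least 50% of its spots had that flag and were uniform and not saturated. A probe was valid when well above background on at least 80% of arrays in every stage (13865 of 21475 probes). The 3 stages were fitted together with limma 3.58.1 in R 4.3.3, with Benjamini-Hochberg adjustment over all valid probes and a threshold of 0.01. Single members were also compared by 2-sided exact permutation tests. For lists, and for counts of members, the valid probe with the highest mean signal stood for a gene. Every member probe is named, and list genes are named among those called in any contrast or whose detection bears on sample identity. Members and lists were chosen with earlier results of these data known. Gene names came from the files' names, accessions and descriptions, with RefSeq names for the accessions. No genome was used, so probes are not placed on a build. The number of arrays limits the precision. Alternatives changed the scaling, background correction, filter, spots, weights, blocks and samples, with the methods' one-factor test among them, and the simulated data on which the fit was checked are not quoted.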

Additional observations from a re-analysis of the deposited data

Results flagged for a closer look

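Of the 27 sets of arrays examined, that is 9 member probes in 3 stages, 3 held an array set apart from the rest of its stage by more than Dixon's 95% limit, and chance alone would do so in about 1 of 20. All of them were calf arrays. In NC1 replicate 3, INSL3 read 7.86 while the nearest other NC1 array read 6.87, and on the same array LUM read 1.96 beside a nearest value of 3.87. CYP17A1 read 2.39 in NC1 replicate 5, beside 2.05 for the nearest array. All these probes were well above background there. Without NC1 replicate 3, LUM at C2 stage exceeded NC1 by 3.25 log2 units and INSL3 by 0.10.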

How the results depend on the processing

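LUM and DCN A_73_104758 kept their direction and their call in both C2 contrasts under every alternative run, except DCN against NC1 on the arrays of the first scan day, where it read 3.18 with an adjusted p of 0.0132. The INSL3 difference between C2 and C1 kept its sign throughout, between -0.96 and -0.64.

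The arrays of the first scan day alone gave 1295 probes differing among stages, 1361 in C2 against C1 and 1397 in C2 against NC1, and those of the second 3740, 4066 and 3475. For C1 against NC1, 8 probes passed in the fit as reported and 1365 had an unadjusted p under 0.05. The count was 25 without the filter, 239 with array weights, whose iteration stopped short of its tolerance, 2 with the slide as a block, 2 with the methods' one-factor test, 77 with NC1 and C1 alone, 0 on the first scan day and 22 on the second. The replicate numbers did not pair the samples, as same-numbered arrays had correlations of their deviations from -0.32 to 0.25, and with the replicate block 0 probes passed in C1 against NC1. Members called in C2 against C1 were 2 in place of 1, INSL3 being added as lower, with 75th percentile scaling, quantile normalization and normexp. On the second scan day there were 2 in each C2 contrast, with PDGFRA added. Leaving out 1 array gave 3429 to 4292 probes differing among stages, 3358 to 4266 in C2 against C1, 3363 to 4153 in C2 against NC1, 1 to 19 in C1 against NC1, and 1 to 2 members in C2 against C1.

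Signs of values near 0 turned. With normexp, INSL3 and CYP17A1 in C2 against NC1 read 0.14 and 0.0038, and in C1 against NC1 LUM read 0.055 and the PDGFRA tag 0.17. On the first scan day INSL3 and CYP17A1 against NC1 read 0.12 and 0.014, LUM in C1 against NC1 0.079, and DCN A_73_111861 against C1 0.33. The PDGFRA tag then read 0.028 in C2 against C1, 0.51 in C2 against NC1 and 0.48 in C1 over NC1. On the second, DCN A_73_111861 against NC1 read -0.42. Averaging the close C2 replicates gave 0.0088 for INSL3 against NC1. Array weights gave 0.17 for DCN A_73_111861 and 0.0085 for the PDGFRA tag against C1. Leaving out 1 array gave -0.26 to 0.10 for INSL3 in C2 against NC1, -0.53 to 0.015 for LUM and -0.27 to 0.0076 for the PDGFRA tag in C1 against NC1, and -0.31 to 0.19 for DCN A_73_111861 in C2 against C1. The mean of both decorin probes in place of A_73_111861 was not near 0 in C2 against C1, at 2.00, and gave -0.20 in C1 against NC1, with no fit across probes. The cause of these shifts was not tested.

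Scaling moved the median of all probes, from 0.02 to -0.11 in C2 against C1 with the 75th percentile and from 0.05 to 0.20 in C1 against NC1 with normexp, and the split of calls in C2 against C1 from 2117 higher and 1775 lower to 2114 and 2514 with the 75th percentile. In C2 against NC1 the split went from 2152 higher and 1741 lower to 2082 and 2491 with the 75th percentile and to 2462 and 1199 with normexp. The arrays of the scan days, chosen after seeing the data, are few, and the limits of 5 and 6 arrays apply to every value.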
